A study of Mus musculus with 8 samples.

Results

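The lineage transcription factors of the LG were followed here in 8 RNA libraries of exorbital LGs. They are the 9 genes Pax6, Sox9, Sox10, Barx2, Foxc1, Bhlha15, Runx1, Elf5 and Ehf, chosen by symbol from 24552 genes listed in the count table. All 9 had enough counts to be tested, among 11211 genes tested in all. The mice were female C57BL/6J, 10 to 11 months old at euthanasia, and no genotype is named in the labels. The AL group (n = 4) was fed ad libitum, and the CR group (n = 4) received a 40% calorie restriction for 4 months from 6 to 7 months of age, with its daily meal given shortly before the dark phase. Libraries were made from oligo(dT)-primed cDNA and read near the 3' ends of transcripts. The study ran its diets in more than 1 cohort, with different chow and at different sites, and the labels do not say which cohort gave these libraries. Levels are given as CPM, read counts scaled to one common library size by RLE factors.

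Lacrimal gland development starts as an epithelial bud of the conjunctiva that branches under the mesenchymal signal FGF10. PAX6, the master regulator of eye development, acts early in this epithelium. SOX9 is required for the bud to take on a glandular fate and SOX10, its relative of the SoxE family, is required for the secretory units. BARX2, a homeodomain factor, and FOXC1, a forkhead factor, act in the growth and branching of the bud, and RUNX1 acts in its branching as well. BHLHA15, also called MIST1, sets up the secretory machinery of serous acinar cells. ELF5 and EHF are epithelial ETS factors of glands and ducts. Several of these factors are also made in salivary glands, among them SOX9, SOX10, BARX2 and BHLHA15.

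Sox10 rose with CR. Among the 9 factors, the edgeR fit used here called only Sox10, at a false discovery rate of 0.05 and a 1.5-fold difference. The study set both thresholds on DESeq2 results. With DESeq2 at these thresholds 3 factors were called higher (Sox10, Barx2 and Foxc1), as were 400 of 13477 genes tested. Over all genes tested, 1.2% were called higher and 0.785% lower in CR in the quasi-likelihood fit of edgeR (p adjusted by Benjamini-Hochberg over all genes), and 0 of the 9 factors were called lower. At an unadjusted p under 0.05, 4 factors were higher in CR (Sox10, Barx2, Foxc1 and Sox9) and 0 lower, beside 8.62% of all genes tested that were higher and 8.1% that were lower. The CR libraries all exceeded the AL libraries for 3 factors, Sox10, Barx2 and Sox9, as for 4.58% of all genes tested, and every CR library lay below every AL library for 0 factors, beside 5.2% of all genes (9.79% in either direction). The estimate was above 0 for 8 factors and below 0 for Pax6. The median log2 fold change of the 9 factors was 0.23, beside 0.01 over all genes tested.

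**Figure D1:**
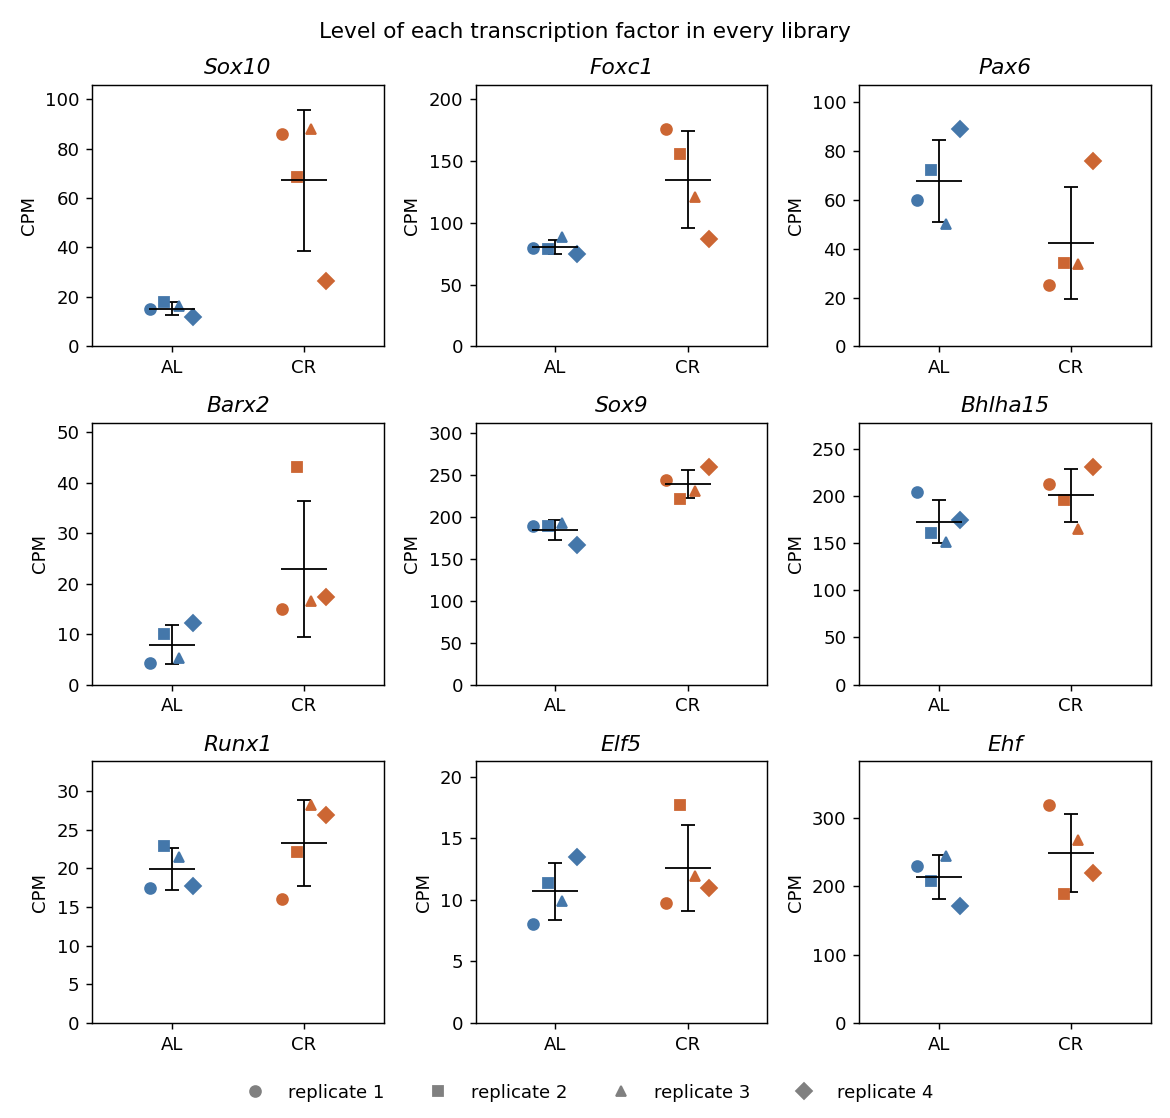
Level of the 9 transcription factors in CPM (vertical axes, from 0) in the AL and CR libraries. Each symbol is 1 library, its shape gives the replicate number, and the bar with whiskers is the mean ± SD (n = 4). CR replicate 4 is the lowest CR library for Sox10 (26.3 CPM) and Foxc1 (87.0 CPM), where the CR levels step down from 176 CPM, and the highest for Pax6 (75.9 CPM).

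CR replicate 4 often differed from the other CR libraries. It had the lowest level of the CR group for Sox10 and Foxc1 and the highest for Pax6, and their fold changes are given with and without it. In the fit without it, 3 of the 9 factors were called higher (Sox10, Barx2 and Foxc1) and 1 lower (Pax6), beside 3.97% of 11401 genes tested that were called higher and 2.17% that were called lower. The libraries also differed in transcripts of the parotid gland, a salivary gland that lies next to the exorbital LG. A parotid score was taken as the average over 6 such transcripts of their log2 CPM (Amy1, Bpifa2, Prb1, Prh1, Prp2 and Prpmp5). AL replicates 1 to 4 scored 6.92, 4.54, 5.42 and 0.98. CR replicates 1 to 4 scored 11.65, 12.94, 9.81 and 9.14. Thus all CR libraries scored above all AL libraries, CR replicate 4 scored lowest in its group, and the diet and the score cannot be told apart in these libraries. The summed level of the 6 transcripts ranged from 237 to 23502 CPM in AL and from 17896 to 230419 CPM in CR. Of these transcripts 3 of 6 were called higher over all genes, and 6 of 6 without CR replicate 4. Secretory markers of the LG were abundant in both groups, among them the odorant-binding protein gene Obp1a at 157772 ± 6767 CPM in AL and 92175 ± 42487 CPM in CR (mean ± SD, n = 4 each) and Pip at 22866 ± 5366 and 27503 ± 10767 CPM. Of 9 tested acinar and lacrimal secretory markers, 3 had an estimate above 0 and 6 below, with a median log2 fold change of -0.42. Totals ranged from 12051881 to 22156511 counts per library. In bulk RNA, fewer cells of a type and less RNA per cell cannot be told apart.

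Sox10 (Gene ID 20665) lies on the minus strand of chromosome 15, from 79154908 to 79165240 of GRCm38. Its level was 15.1, 17.9, 16.3 and 11.9 CPM in AL replicates 1 to 4. In CR replicates 1 to 4 it was 85.7, 68.4, 88.1 and 26.3 CPM. The groups did not overlap, 3 CR libraries lay close together, and CR replicate 4 lay nearer to the AL libraries than to them. The mean rose from 15.3 ± 2.53 to 67.2 ± 28.6 CPM (SD, n = 4 each). The log2 fold change was 2.13 (standard error 0.32, edgeR adjusted p = 0.00746), a 4.39-fold rise with a 95% confidence interval from 2.70 to 7.14. By p, Sox10 stood at place 35 of the 11211 genes. It was called in each of the 8 fits that left out 1 library, with log2 fold changes from 1.98 to 2.40, and the highest of these, without CR replicate 4, had an edgeR adjusted p of 6.43e-05. After adjustment for the parotid score the estimate was 1.44 (standard error 0.63) and it was not called, with an edgeR adjusted p of 0.467.

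SOX10 also marks Schwann cells and myoepithelial cells, so markers of both were read beside it. Of 10 Schwann cell markers 6 were tested and 0 were called, and their summed level ranged from 20.8 to 32.9 CPM in AL and from 20.4 to 31.6 CPM in CR. The Schwann marker Cdh19 had at most 4 counts in any library. Mbp and Pmp22, both myelin genes and the most counted of the list, had 14.3 and 8.46 CPM in the AL group and 12.7 and 6.97 CPM in the CR group. Of 10 myoepithelial and basal markers 9 were tested and 0 were called, with a median log2 fold change of -0.68 and sums from 191 to 286 CPM in AL and from 116 to 223 CPM in CR. The most counted of them were the contractile genes Cald1 (56.3 ± 8.37 and 59.1 ± 18.4 CPM in AL and CR), Mylk (74.8 ± 23.6 and 38.8 ± 15.3 CPM) and Acta2 (52.1 ± 11.8 and 33.5 ± 11.3 CPM). Thus neither list had a summed level in CR above the AL range, while Sox10 did.

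The other SoxE factor of the gland, Sox9 (Gene ID 20682, chromosome 11, 112782224 to 112787760, plus strand), had a far smaller difference. Its level was 189.3, 189.2, 193 and 167 CPM in AL replicates 1 to 4. In CR replicates 1 to 4 it was 244, 222, 230.5 and 260 CPM. The groups did not overlap, and CR replicate 4 was the highest of all. The mean was 185 ± 12.0 CPM in AL and 239 ± 16.7 CPM in CR, a log2 fold change of 0.37 (standard error 0.17) that was not called (edgeR adjusted p = 0.282). Its fold change of 1.29 has a 95% confidence interval from 1.01 to 1.66. Sox8, the remaining SoxE gene, had at most 2 counts in any library.

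The balance of both SoxE factors was compared within each library, where scaling plays no part. In AL replicates 1 to 4 there were 12.5, 10.6, 11.9 and 14.0 counts of Sox9 for each count of Sox10. In CR replicates 1 to 4 there were 2.84, 3.24, 2.62 and 9.87. The groups did not overlap, and CR replicate 4 lay just under the lowest AL library. The mean log2 ratio was 3.595 ± 0.17 in AL and 1.97 ± 0.89 in CR (SD, n = 4 each), a difference of -1.63 (two-sided exact permutation p = 0.0286, which is as low as this design can go, and 0.0857 adjusted by Benjamini-Hochberg over 3 ratios). Without CR replicate 4 the difference was -2.07.

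Barx2 (Gene ID 12023, chromosome 9, 31846044 to 31913462, minus strand) was the least counted of the factors in AL. Its level was 4.24, 10.1, 5.25 and 12.2 CPM in AL replicates 1 to 4. In CR replicates 1 to 4 it was 15.0, 43.2, 16.5 and 17.3 CPM. The groups did not overlap, CR replicate 2 stood far above the others, and CR replicate 4 lay with CR replicates 1 and 3. From 7.93 ± 3.80 to 23.0 ± 13.5 CPM (mean ± SD, n = 4 each), the log2 fold change was 1.53 (standard error 0.40), which missed the threshold (edgeR adjusted p = 0.0753). Without CR replicate 2 it was 1.03, and without CR replicate 4 it was 1.64 and called, with an edgeR adjusted p of 0.0367. After adjustment for the parotid score it was 1.83 (standard error 0.90), higher than without the covariate, and not called.

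Foxc1 (Gene ID 17300, chromosome 13, 31806633 to 31812476, plus strand) was steady in AL, at 79.4, 78.8, 88.8 and 75.1 CPM in replicates 1 to 4. In CR replicates 1 to 4 it was 176, 155, 121 and 87.0 CPM. CR replicate 4 lay within the AL range, and the other CR libraries lay above it. The mean was 80.5 ± 5.83 CPM in AL and 135 ± 39.2 CPM in CR. The log2 fold change of 0.74 (standard error 0.22) was not called, with an edgeR adjusted p of 0.101. Without CR replicate 4 it was 0.90 and called (edgeR adjusted p = 0.0104), with 151 ± 27.9 CPM in the remaining 3 CR libraries, and after adjustment for the parotid score it was 0.18 (standard error 0.41).

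Pax6 (Gene ID 18508, chromosome 2, 105668900 to 105697364, plus strand) had the only estimate below 0. Its level was 59.9, 72.1, 50.1 and 89.1 CPM in AL replicates 1 to 4. In CR replicates 1 to 4 it was 25.1, 34.3, 33.8 and 75.9 CPM. The first 3 CR replicates lay below every AL library, whereas CR replicate 4 was above 3 of the 4 AL libraries. Replicate 4 was the highest library of the AL group as well, and each CR library lay below the AL library of the same number. The mean was 67.8 ± 16.8 CPM in AL and 42.3 ± 22.8 CPM in CR, a log2 fold change of -0.68 (standard error 0.31) that was not called (edgeR adjusted p = 0.300). With a block for the replicate number it was -0.78 and called (edgeR adjusted p = 0.0261), though no label pairs the libraries. Without CR replicate 4 the mean in CR was 31.1 ± 5.16 CPM (n = 3), the log2 fold change was -1.13 and Pax6 was called lower, with an edgeR adjusted p of 0.0102. After adjustment for the parotid score the estimate turned to 0.37 (standard error 0.48).

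**Figure D2:**
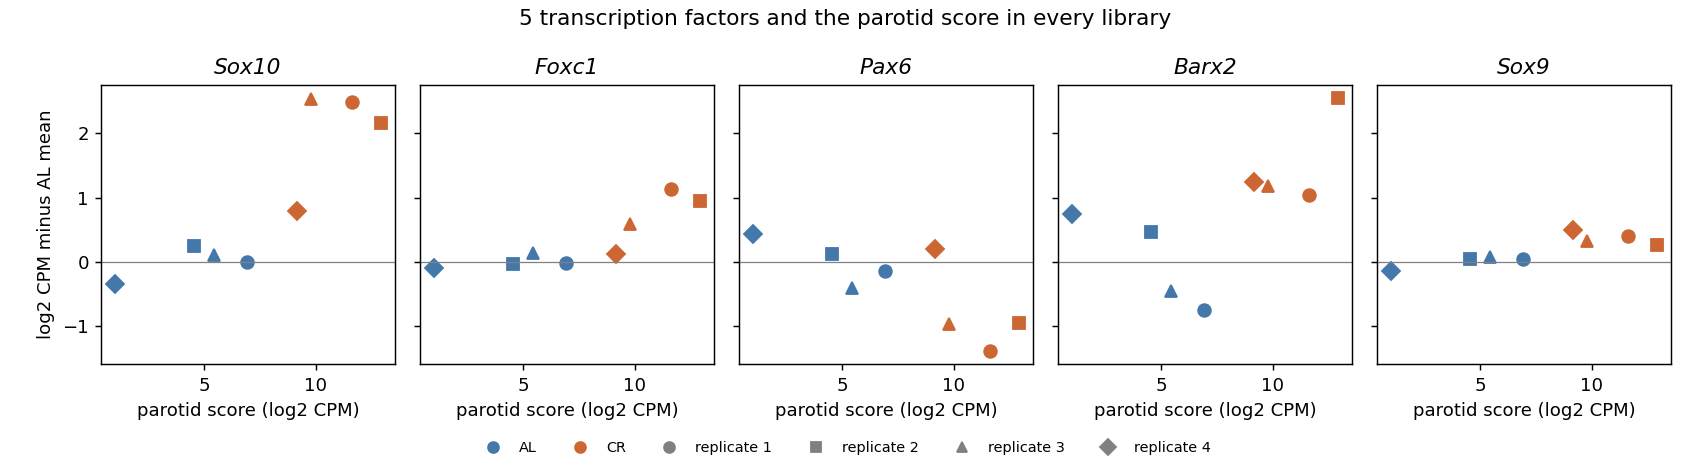
Log2 CPM of 5 factors minus the mean of the AL libraries (vertical axis) against the parotid score in log2 CPM (horizontal axis), 1 symbol per library, with colour for the diet and shape for the replicate number. All AL scores (0.98 to 6.92) lie left of all CR scores (9.14 to 12.94), and CR replicate 4 has the lowest CR score and lies nearest to the AL libraries for Sox10, Foxc1 and Pax6.

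Sox10, Foxc1 and Pax6 thus shared a pattern in which CR replicates 1 to 3 lay outside the AL range and CR replicate 4 stood with, or nearer to, the AL libraries. In CR replicate 4 the summed parotid transcripts, 17896 CPM, lay within the AL range of 237 to 23502 CPM. Sox9 and Barx2 did not share this pattern, since CR replicate 4 was the highest of 4 CR libraries for Sox9 and the second highest for Barx2. The part of the parotid transcripts in these differences was not tested.

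RefSeq promoter windows, from 250 bases before to 50 bases after a start, matched 5 of the 9 factors in 8 windows. Sox9, Sox10, Barx2 and Ehf had none. Those of Foxc1 and Pax6 are shown because, without CR replicate 4, Foxc1 was called higher and Pax6 lower. Capitals mark a match, on either strand, to ACAAAG (a SOX core), CACGTG or CAGCTG (E-boxes), 3 motifs that do not overlap in these windows. The Foxc1 window is chr13:31806396-31806695 and the Pax6 windows are chr2:105668646-105668945 and chr2:105682213-105682512, on the plus strand of GRCm38.p6.
Foxc1: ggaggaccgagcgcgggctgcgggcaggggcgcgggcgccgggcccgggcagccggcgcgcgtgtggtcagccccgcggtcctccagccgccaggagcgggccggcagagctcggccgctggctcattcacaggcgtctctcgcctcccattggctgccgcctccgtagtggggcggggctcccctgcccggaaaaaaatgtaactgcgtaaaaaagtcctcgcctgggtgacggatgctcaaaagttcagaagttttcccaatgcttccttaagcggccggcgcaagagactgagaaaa
Pax6 upstream start: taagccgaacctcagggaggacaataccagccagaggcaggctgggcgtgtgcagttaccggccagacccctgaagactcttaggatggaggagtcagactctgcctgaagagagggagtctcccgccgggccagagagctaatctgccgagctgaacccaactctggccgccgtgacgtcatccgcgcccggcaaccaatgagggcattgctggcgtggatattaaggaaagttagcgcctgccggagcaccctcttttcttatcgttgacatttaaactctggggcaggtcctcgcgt
Pax6 downstream start: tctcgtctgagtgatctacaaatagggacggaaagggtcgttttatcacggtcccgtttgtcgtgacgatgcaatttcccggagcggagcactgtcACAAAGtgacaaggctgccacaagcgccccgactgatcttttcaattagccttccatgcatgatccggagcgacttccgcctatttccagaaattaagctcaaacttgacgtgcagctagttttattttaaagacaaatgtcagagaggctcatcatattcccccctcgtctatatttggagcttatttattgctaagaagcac
Foxc1 and the upstream start of Pax6 hold 0 matches, and the downstream start of Pax6 holds 1 ACAAAG, a motif present in 18.7% of 32851 RefSeq windows of 300 bases. CACGTG occurs in 7.15% of windows and CAGCTG in 16.3%. Of the other factors, Runx1 has 1 CACGTG in the more upstream of its windows and Elf5 has 1 CAGCTG. The GC content was 67.3% in the Foxc1 window and 58.7 and 46.3% in the Pax6 windows.

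The acinar factor Bhlha15 (Gene ID 17341, chromosome 5, 144190286 to 144194441, plus strand) was among the most abundant of the factors. It had 204, 161, 152 and 174 CPM in AL replicates 1 to 4, against 212, 195, 165 and 231 CPM in CR replicates 1 to 4, with overlapping groups. The log2 fold change was 0.22 (standard error 0.18, edgeR adjusted p = 0.616), and the 95% interval of its fold change ran from 0.883 to 1.53. Of 16 genes tied to MIST1 and regulated secretion 12 were tested and 0 were called, with a median log2 fold change of 0.21. Rab26 and Rab3d, small GTPases of secretory granules, had 10.2 ± 0.618 and 131 ± 15.2 CPM in AL and 7.74 ± 1.41 and 152 ± 12.3 CPM in CR. Rab27b, of the same list, had 25.1 ± 1.99 and 16.3 ± 2.31 CPM (log2 fold change -0.62, edgeR adjusted p = 0.0823). All CR libraries lay below all AL libraries for 2 of the 12, Rab26 and Rab27b, and above them for 1, Vamp8. Over all genes tested these shares were 5.2% and 4.58%. Gjb1, which encodes a gap junction protein of acinar cells, was at 64.5 and 62.6 CPM in the AL and CR groups. Without CR replicate 4, too, 0 of these genes were called.

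Runx1 (Gene ID 12394, chromosome 16, 92601466 to 92826149, minus strand) had 17.5, 22.9, 21.4 and 17.7 CPM in AL replicates 1 to 4, against 15.99, 22.1, 28.2 and 26.8 CPM in CR replicates 1 to 4. CR replicate 1 was the lowest of all libraries and CR replicate 3 the highest. Its log2 fold change was 0.23 (standard error 0.20, edgeR adjusted p = 0.645), with a 95% interval of the fold change from 0.861 to 1.595. RUNX1 is also made by leukocytes. The summed level of leukocyte markers ranged from 122 to 375 CPM in AL and from 58.1 to 104 CPM in CR, and of 6 tested 1 was called lower, the MHC class II gene H2-Aa. In the fit that left out CR replicate 4, 7 were tested and 2 were called lower, H2-Aa and the B cell gene Ms4a1. The Runx family members Runx2 and Runx3 had 6.51 ± 1.35 and 2.58 ± 1.45 CPM in AL and 4.76 ± 0.716 and 1.16 ± 0.674 CPM in CR, and their shared partner Cbfb had 7.44 ± 4.93 and 8.06 ± 7.02 CPM. None of these 3 genes was called.

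Ehf and Elf5 are neighbours on chromosome 2, transcribed away from each other, with their starts 108410 bases apart. Ehf (Gene ID 13661, 103263433 to 103303278, minus strand) had the highest mean of the factors. Its level was 230, 207, 244 and 171 CPM in AL replicates 1 to 4, against 319, 189, 268 and 220 CPM in CR replicates 1 to 4. Elf5 (Gene ID 13711, 103411688 to 103450989, plus strand) had the lowest mean over all libraries, with 8.01, 11.4, 9.91 and 13.4 CPM in AL replicates 1 to 4, against 9.76, 17.7, 11.9 and 10.9 CPM in CR replicates 1 to 4. Both had overlapping groups, and CR replicate 2 was the lowest CR library for Ehf and the highest for Elf5. The log2 fold changes were 0.22 for Ehf (standard error 0.21) and 0.23 for Elf5 (standard error 0.24). Neither was called, with edgeR adjusted p-values of 0.666 and 0.702. The 95% intervals of the fold changes ran from 0.848 to 1.61 for Ehf and from 0.819 to 1.69 for Elf5. The log2 ratio of Elf5 to Ehf was -4.31 ± 0.52 in AL and -4.30 ± 0.67 in CR (SD, n = 4 each, exact permutation test, two-sided p = 1).

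**Figure D3:**
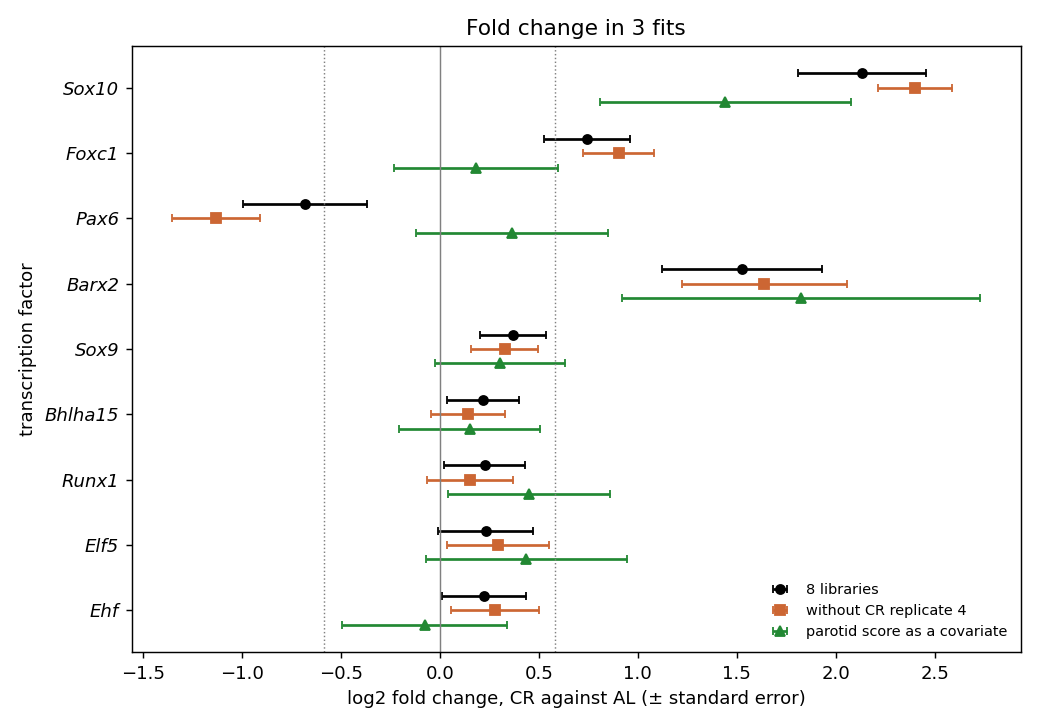
Log2 fold change of each factor, CR against AL (horizontal axis, whiskers ± 1 standard error), with all 8 libraries, without CR replicate 4 and after adjustment for the parotid score. Dotted lines mark a fold change of 1.5 in either direction. In this order Sox10 had estimates of 2.13, 2.40 and 1.44, Foxc1 of 0.74, 0.90 and 0.18, and Pax6 of -0.68, -1.13 and 0.37.

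The factors spanned a wide range of levels. Since reads come from the 3' ends, a transcript yields reads irrespective of its length, and CPM was not divided by length. By mean CPM over 8 libraries the order was Ehf (231), Sox9 (212), Bhlha15 (187), Foxc1 (108), Pax6 (55.0), Sox10 (41.2), Runx1 (21.6), Barx2 (15.5) and Elf5 (11.6). Ehf, Sox9 and Bhlha15 could not be ordered beyond their spread, as Ehf exceeded Sox9 in 6 of 8 libraries and Sox9 exceeded Bhlha15 in 6 of 8. Bhlha15 exceeded Foxc1 in 8 of 8. The places of Sox10 and Barx2 differed between the diets. Pax6 exceeded Sox10 in 4 of 4 AL libraries and in 1 of 4 CR libraries, which was CR replicate 4. Barx2 lay below Elf5 in 4 of 4 AL libraries and above it in 4 of 4 CR libraries. Against all genes tested, Ehf stood at percentile 98.8 of mean CPM and Elf5 at 66.

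Within the AL group the spread differed between factors. The coefficient of variation was 6.52% for Sox9 and 7.24% for Foxc1, and 48.0% for Barx2, of which the highest AL library had 2.87 times the level of the lowest. In CR it was 6.98% for Sox9, 29.1% for Foxc1, 42.6% for Sox10, 54.0% for Pax6 and 58.6% for Barx2. Without CR replicate 4 it was 18.5% for Foxc1, 13.3% for Sox10, 16.6% for Pax6 and 63.6% for Barx2. At the 3' end of each factor, 0% of the 75-base windows in the last 600 bases occur in transcripts of genes other than the 9, and 0 other annotated genes lie in those bases.

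The genes whose profile over 8 libraries was closest to that of Sox10, by root mean square difference of centred log2 CPM, were Smpdl3b (0.20), Klc3 (0.20) and Wipf3 (0.31). Smpdl3b averaged 4.81 CPM in the AL group and 19.0 CPM in the CR group, and all of them were called higher in CR, with log2 fold changes of 1.99, 2.12 and 2.08. Among the other 8 factors Foxc1 was the closest, at 0.74. These values describe 8 libraries that share diets and parotid scores.

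Of 38 further transcription factors of gland epithelia 23 were tested, and 3 were called higher and 0 lower (median log2 fold change 0.25, beside 0.01 over all genes tested). Creb3l1, a factor of the secretory pathway, had 22.6, 27.2, 19.6 and 36.1 CPM in AL replicates 1 to 4, against 71.5, 104, 94.3 and 79.4 CPM in CR replicates 1 to 4 (log2 fold change 1.72, standard error 0.22, edgeR adjusted p = 0.00389). Tfcp2l1, a factor of ducts, rose by 1.23 on the log2 scale (standard error 0.22), with 27.6 ± 6.57 CPM in AL and 64.8 ± 16.6 CPM in CR. The epithelial factor Klf5 rose by 1.11 (standard error 0.22), with 9.34 ± 1.68 CPM in AL and 20.2 ± 4.80 CPM in CR. In all 3 the groups did not overlap, and CR replicate 4, at 79.4, 51.6 and 16.1 CPM, exceeded all AL libraries. After adjustment for the parotid score these differences were 2.22, 1.29 and 1.15 on the log2 scale, and none was called.

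Pitx1 and Pax9, both factors of oral tissues, and Otx1, a homeodomain factor of the head, were singled out after their values were seen. Pax9 had 23.7, 11.3, 10.1 and 0 CPM in AL replicates 1 to 4, against 232, 265, 209 and 16.1 CPM in CR replicates 1 to 4. Pitx1 had 4.24, 1.17, 1.46 and 0.254 CPM in the AL group and 25.6, 25.1, 20.9 and 1.55 CPM in the CR group. CR replicate 4 lay within the AL range for both. With all 8 libraries the log2 fold changes of Pax9 and Pitx1 were 4.01 and 3.41, and neither was called (edgeR adjusted p = 0.0712 and 0.0532). Without CR replicate 4 both were called higher, with log2 fold changes of 4.40 and 3.80. Otx1 had 199, 191, 160 and 156 CPM in the AL group and 82.8, 64.8, 95.5 and 147 CPM in the CR group, where CR replicate 4 was the highest, and its log2 fold change of -0.85 was not called, but without CR replicate 4 it was -1.12 and called. After adjustment for the parotid score the estimate was -0.73 (standard error 1.45) for Pax9, -0.18 (standard error 1.07) for Pitx1 and -0.52 (standard error 0.45) for Otx1.

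Of 36 genes of FGF10 and other branching signals 26 were tested, and 0 were called in either direction, with a median log2 fold change of -0.06. Fgf10, the mesenchymal signal, had 2.13 ± 0.917 CPM in the AL group and 1.71 ± 0.835 CPM in the CR group, and its receptor gene Fgfr2 had 3.02 ± 2.02 and 7.06 ± 3.83 CPM. Etv5, an ETS factor that FGF signals induce, had 5.51 ± 2.57 and 2.35 ± 0.870 CPM. Of 21 relatives of the 9 factors in their own families 12 were tested and 0 were called. The factor gene nearest in family to Foxc1, Foxc2, had 6.79 ± 1.89 CPM in the AL group and 4.86 ± 3.23 CPM in the CR group, and the ETS relatives Elf3 and Spdef had 2.51 ± 1.03 and 5.52 ± 0.789 CPM in AL and 3.52 ± 0.927 and 8.52 ± 4.02 CPM in CR. Of 10 duct markers 9 were tested and 0 were called, with sums from 339 to 431 CPM in AL and from 438 to 495 CPM in CR, and 3 were called higher without CR replicate 4 (Krt18, Cldn4 and Wfdc2). Pigr, which encodes the receptor that carries IgA into tears, was the 1 gene called among 9 tested acinar and lacrimal secretory markers, at 396 ± 43.4 CPM in AL and 205 ± 42.6 CPM in CR (log2 fold change -0.95). When CR replicate 4 was left out, 10 of these markers were tested and 4 were called, Prol1 and Car6 higher and Ltf and Pigr lower. Car6, a secreted carbonic anhydrase gene, had 19148 ± 6994 CPM in the AL group and 61462 ± 19303 CPM in the CR group. Of the remaining lists, 2 of 8 fibroblast markers were called lower, Col1a1 (18.3 and 3.22 CPM in AL and CR) and Col3a1 (36.6 and 5.28 CPM), and 0 of 6 endothelial and pericyte markers were called. Of submandibular and sublingual transcripts 1 of 4 tested was called higher, Dcpp3, and their sum ranged from 18.3 to 498 CPM in AL and from 272 to 5751 CPM in CR. This count was 3 of 4 without CR replicate 4, with Dcpp1 and Dcpp2 called as well. The 1 tested marker of lens, cornea and conjunctiva, Cryab, was not called.

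**Figure D4:**
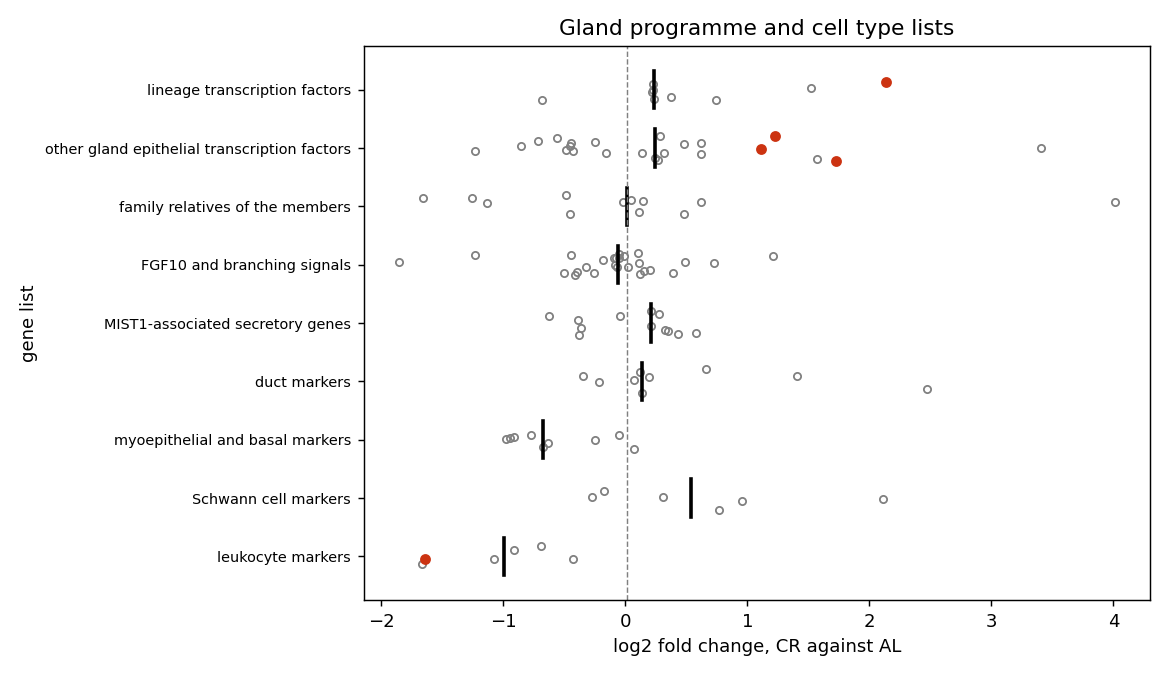
Log2 fold change, CR against AL (horizontal axis), of the tested genes of 9 lists (rows). Open circles are genes that were not called, filled circles genes that were called, black bars the list medians, and the dashed line the median of all genes tested (0.01). Called genes are Sox10 among the lineage factors, Creb3l1, Tfcp2l1 and Klf5 among the other factors and H2-Aa among the leukocyte markers.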

How the data were processed

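RNA from LGs (4 AL and 4 CR libraries) was sequenced from 3' ends in single reads of 75 bases. Before depositing raw counts, the authors used cutadapt for trimming, STAR for alignment to mm10 and HTSeq for counting. The log2 values the authors also deposited were recomputed from the counts with RLE size factors of DESeq2 (largest difference 0.000124) and used no further. The labels do not state that each library is 1 mouse, and p-values measure the spread between libraries. Tool versions and the strand setting are not given in the sources used here. The 9 factors and the gene lists were chosen with earlier results of these data known, and the values of 1 listed gene are not reported here.

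After 5 repeated symbols were dropped, 24552 genes remained, 16735 had a count and 11211 passed filterByExpr. Totals ranged from 12051881 to 22156511 counts, and a floor of 3 counts is 0.152 to 0.231 CPM, for counting error only. The diets were compared in R 4.3.3 with edgeR 4.0.16 (RLE factors, quasi-likelihood F tests, Benjamini-Hochberg adjustment over all genes). No label says that same-numbered libraries are paired, and the main fit does not pair them. Ratios were compared by exact permutation tests. Log2 CPM used a prior count of 2. Named genes are the 9 factors, called genes and the most counted genes of the lists, the 3 profiles closest to a called factor, those said to be singled out and, for related pathways, genes chosen by role with values known. Alternatives were TMM, upper-quartile or no factors, DESeq2 1.42.0, voom of limma 3.58.1 with quality weights, other filters, a block for the replicate number, the parotid score as a covariate, the 50 most counted genes left out and each library left out. Positions come from GENCODE vM21 on GRCm38, the build mm10 names.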

Additional observations from a re-analysis of the deposited data

Results flagged for a closer look

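Dixon's test for 1 sample far from the others was run on the level of each of the 9 factors in each diet, 18 groups of 4 libraries, and it picked 2. Chance picks about 1 group in 20. The Sox9 level of AL replicate 4, 167 CPM, lay below the other AL libraries, of which the nearest had 189.2 CPM. The Barx2 level of CR replicate 2, 43.2 CPM, lay above the other CR libraries, of which the nearest had 17.3 CPM.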

How the results depend on the processing

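The rise of Sox10 was called in 9 of 10 alternatives and in 8 of 8 fits that left out 1 library, but not after adjustment for the parotid score (log2 fold change 1.44). The number of factors called higher was 3 with DESeq2, 2 with voom, 2 without a filter on low counts, 3 with the replicate block and 0 with the parotid score, and 1 was called lower with the block. When 1 library was left out, 1 to 3 were called higher and 0 to 1 lower, the upper numbers without CR replicate 4. Barx2 was called with DESeq2 (1.53), without a filter (1.53) and with the block (1.51), and ranged from 1.03 to 1.81 without 1 library. Foxc1 was called with DESeq2 (0.75), voom (0.77) and the block (0.70), and ranged from 0.60 to 0.90. Pax6 was called with the block (-0.78) and ranged from -1.13 to -0.49. After adjustment for the parotid score the estimates of Pax6 (0.37) and Ehf (-0.075) changed sign. Sox9, Bhlha15, Runx1, Elf5 and Ehf were called in 0 fits. The Elf5 to Ehf difference ranged from -0.29 to 0.25.

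Over all genes, 134 were called higher and 88 lower. These numbers were 400 and 305 with DESeq2, 237 and 160 with voom, 271 and 165 without a filter, 388 and 312 with the block and 4 and 0 with the parotid score, and 51 were lower with library totals. Without 1 library they ranged from 35 to 453 and from 25 to 247, and both upper numbers came from the fit without CR replicate 4. The causes were not tested. The block pairs libraries by number, which no label backs. Deviations of same-numbered libraries correlated at 0.15, 0.08, 0.24 and 0.46, and 3 of 4 numbers correlated best with themselves. Total counts ran in the same order of numbers in both diets, highest for replicate 4 and lowest for replicate 3. What same-numbered libraries share was not tested. Without CR replicate 4, a setting added after the data were seen for the lists, 5 of the further gland factors were called higher (3 with it) and 1 lower (0 with it), and 1 family relative was called higher (0 with it).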
